A study of Mus musculus with 59 samples.

Results

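Cytochrome P450 enzymes are haem proteins that insert oxygen into drugs, steroids, bile acids and fatty acids. The members of families 1 to 3 carry out most of the oxidation of foreign chemicals in liver, and most of them sit in hepatocytes around the central vein. They draw electrons from cytochrome P450 reductase. Many are induced through ligand-activated receptors: the constitutive androstane receptor (CAR, gene Nr1i3), the pregnane X receptor (PXR, gene Nr1i2) and the aryl hydrocarbon receptor (AhR). Inflammation is known to lower many of them.

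The genes described here were chosen by symbol: every probe set annotated to exactly 1 gene whose symbol is Cyp1, Cyp2 or Cyp3 followed by a letter and a number. This gave 52 of the 45101 probe sets on the array and 43 of 18193 genes, namely 3 genes of family 1, 35 of family 2 and 5 of family 3. Probe sets annotated to 2 P450 genes at once, 2 in number, were left out. The enzymes are clustered in the genome: by the RefSeq annotation of assembly GRCm38.p6, 11 Cyp2c genes lie on chromosome 19, 8 Cyp2d genes on chromosome 15, 5 Cyp2j genes on chromosome 4 and 5 Cyp3a genes on chromosome 5. Near-identical neighbours in these clusters can share probes, so a value of one Cyp2c, Cyp2d or Cyp3a gene may hold signal of another.

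The study measured RNA on 59 expression arrays from B6C3F1 mice, a hybrid laboratory mouse. Mice received baclofen, an agonist of the GABA-B receptor used as a muscle relaxant, or the vehicle, 0.5% methylcellulose, once or as 5 daily doses, and tissue was taken 2 hours after the last dose. The dose of baclofen, and the age and sex of the mice, are not given in the sources used here. The livers comprised 3 vehicle and 4 baclofen samples at 1 day and 4 vehicle and 8 baclofen samples at 5 days. Bone marrow and spleen each comprised 4 vehicle and 4 baclofen samples at 1 day and 4 vehicle and 8 baclofen samples at 5 days. Values are log2 intensity after robust multi-array averaging (RMA), and a difference of 1 on this scale is a factor of 2.

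Some samples stood apart. For 5 of the 7 livers taken at 1 day the source field contradicts the title and the treatment field, and the title was followed, so directions at 1 day rest on the titles. In liver the mean log2 level of 17 acute phase genes, secreted proteins made in inflammation, ranged from 10.45 to 12.92. It was 12.44, 12.92, 12.01 and 10.45 in vehicle replicates 1 to 4 at 5 days. Baclofen 5-day replicate 8 had 12.14, the highest of its group, and was the highest or lowest liver of that group for 20 of 30 P450 genes. Hepatocyte genes varied little over the livers, from 14.64 to 14.71, a level near the top of the array's range. Macrophage and neutrophil markers had negative differences in liver at 5 days, and few were called. Of 5 liver endothelium genes tested, 4 had positive and 1 had a negative difference at 5 days (median 0.02), and 0 were called. The mean over 8 tissue macrophage genes was 7.99 to 8.43 in vehicle and 7.56 to 8.03 in baclofen livers. Of 7 tested, 7 had negative differences (median -0.41) and 1, Cd5l, fell (-0.61; limma adjusted p = 0.0438). The mean over 6 mature neutrophil genes was 5.32 to 6.31 in vehicle and 4.86 to 5.99 in baclofen livers. Of 2 tested, Lcn2, which hepatocytes also make in inflammation, fell (-3.80; adjusted p = 0.0136) and S100a9 differed by -0.27 (adjusted p = 0.446). The part of these cells in the P450 results was not tested. Among the spleens of 5 days, hepatocyte genes averaged 10.05 (replicate 3), 7.49 (replicate 1) and 6.36 (replicate 4) after vehicle, and 9.89 (replicate 5) after baclofen. All other spleens averaged 4.94 to 5.66. In bulk tissue, a change in the number of cells of a type and a change in RNA per cell cannot be told apart.

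Of the 43 genes, 30 passed the filter on dim genes and were tested in liver, while 3 passed in marrow and 5 did in spleen. Liver means of the tested genes ran from 5.63 to 14.60, where the highest value on any liver array was 15.40. For 23 genes the liver mean was over 8-fold above the means in both other tissues. Cyp2e1, which oxidises ethanol, averaged a log2 intensity of 14.60 over livers, 5.07 over marrows and 7.00 over spleens. Cyp3a11, a major drug-oxidising enzyme of mouse liver, averaged 14.59, 4.08 and 4.77 in the same order. Liver appears to have been normalized apart from the other tissues, so only such wide gaps are set side by side. Cyp2f2, Cyp2c29, Cyp3a25, Cyp2c70, Cyp2d9 and Cyp2d26 followed in liver with means from 13.88 down to 13.37.

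**Figure D1:**
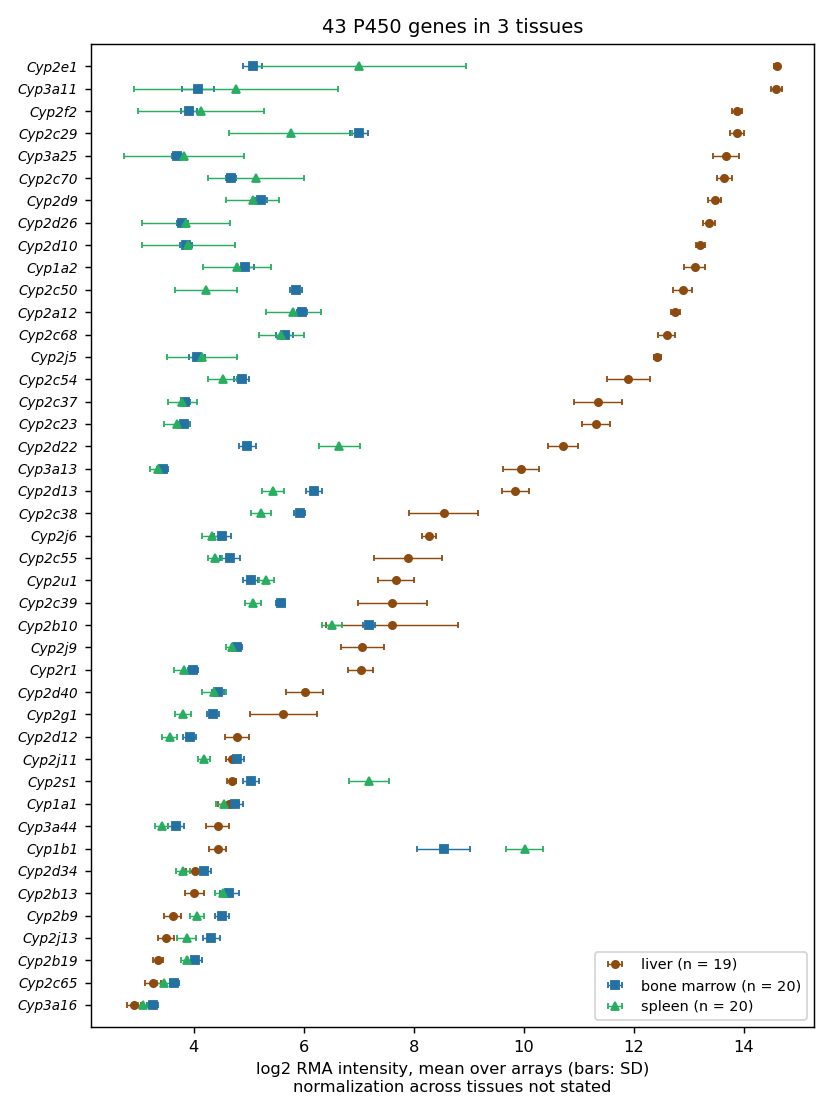
Mean log2 RMA intensity (x axis) of each of the 43 P450 genes (rows, ordered by liver mean) in 19 livers, 20 bone marrows and 20 spleens, with the SD over arrays as bars. Most genes lie far to the right in liver alone, while Cyp1b1 and Cyp2s1 lie higher in spleen, and the wide spleen bars belong to genes such as Cyp2e1 (mean 7.00) that are bright in a few spleens.

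The 13 genes below the liver filter had means from 2.92 to 4.79. They include Cyp1a1, an AhR-induced enzyme, at 4.63, and Cyp1b1, an oestradiol-oxidising enzyme of tissues outside the liver, at 4.44. They also include Cyp2b9, Cyp2b13, Cyp3a16 and Cyp3a44, which are known to be higher in livers of female mice, at 3.62, 4.01, 2.92 and 4.44. The Y-linked gene Eif2s3y had 9.07 to 9.72 in every liver and Xist, which is made by the inactive X chromosome, 5.17 to 6.15.

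The comparison of baclofen with vehicle in liver after 5 daily doses gave 5 called genes among the 30 tested, 4 higher and 1 lower. A gene was called when its adjusted p in limma was under 0.05. Over all 10916 genes tested, 10.6% were called, 4.86% higher and 5.75% lower. The called genes are Cyp2b10, Cyp2c29, Cyp3a11 and Cyp3a25, which rose, and Cyp2d40, which fell. Baclofen minus vehicle was above 0 for 23 of the 30, against 45.9% of all genes, with a median log2 difference of 0.17 against -0.02 over all genes. Of the 4 vehicle livers, replicate 2 was the lowest for 13 of the 30 genes and replicate 3 for 12. Replicate 1 was the highest for 16 and replicate 4 for 11. Replicates 2 and 3 were the highest or lowest for 53.3% and 40% of the 30, against 59% and 45.3% of all genes. How far the direction count rests on these livers was not tested.

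**Figure D2:**
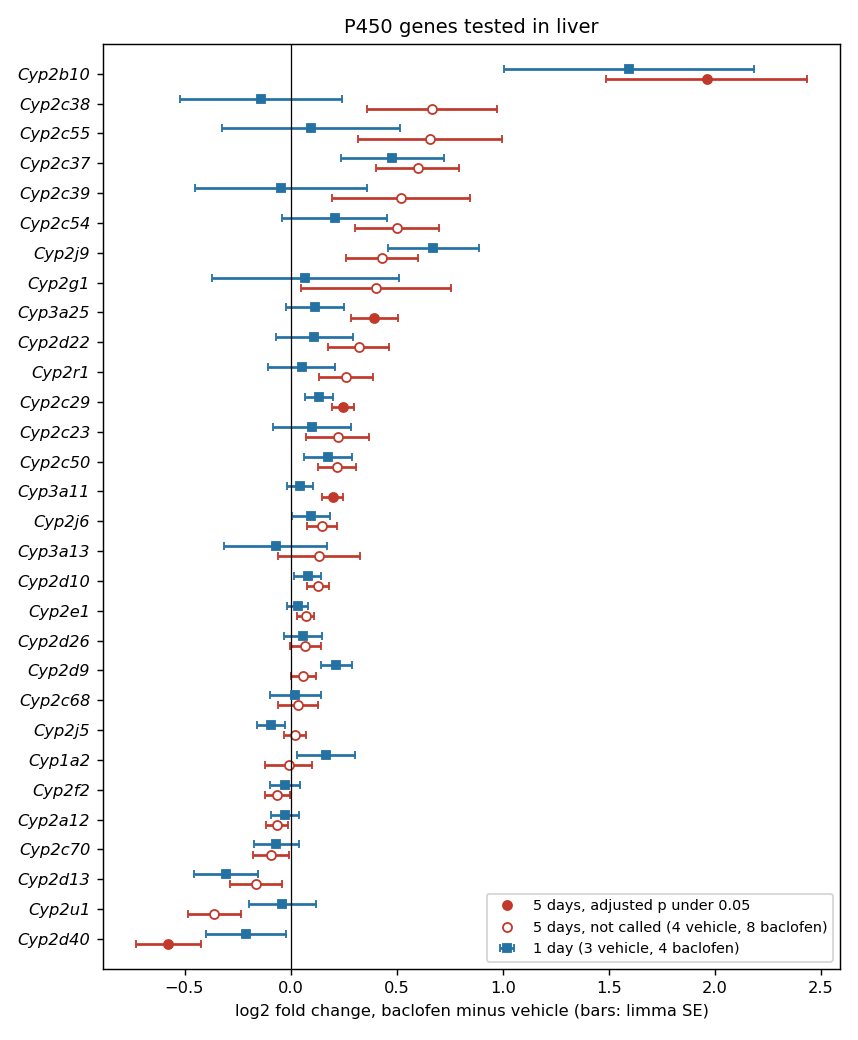
Log2 fold change of baclofen over vehicle (x axis, bars are limma's SE) for the 30 P450 genes tested in liver (rows), at 1 day (squares) and 5 days (circles, filled where the adjusted p was under 0.05). Cyp2b10 stands apart with 1.60 at 1 day and 1.96 at 5 days, most Cyp2c and Cyp3a genes lie to the right of 0 at 5 days, and Cyp2d40 and Cyp2u1 lie to the left.

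Cyp2b10, the classical CAR-induced P450 of mouse liver, had the largest rise. The 250 bases before its start are shown because it leads the response, in the direction of the gene, from RefSeq (assembly GRCm38.p6, chr7:25897408-25897657, plus strand). In this and the sequences below, capitals mark every match, on either strand, to 6 motifs. The half-site of nuclear receptors such as CAR and PXR was searched as AGGTCA. The half-site of the glucocorticoid receptor was searched as TGTTCT. The core of the AhR site was searched as GCGTG. The TATA box was searched as TATAAA, the C/EBP site as TTGCNNAA and the E-box as CACGTG.
Cyp2b10: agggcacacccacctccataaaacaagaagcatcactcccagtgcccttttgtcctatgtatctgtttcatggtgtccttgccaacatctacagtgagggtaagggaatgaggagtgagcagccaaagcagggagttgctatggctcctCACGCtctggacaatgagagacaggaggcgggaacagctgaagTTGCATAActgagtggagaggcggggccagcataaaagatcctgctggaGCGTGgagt
The window held GCGTG at 101 to 97 and at 9 to 5 bases before the start and TTGCNNAA at 58 to 51, and none of the other 4 motifs. A match is a description of the letters.

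At 5 days the vehicle livers had log2 intensities of 7.67, 5.60, 5.46 and 6.64 for Cyp2b10, and the baclofen livers 7.88, 8.07, 7.64, 7.65, 7.55, 9.37, 8.76 and 9.49. Vehicle replicate 1 lay above 3 baclofen livers, so the groups overlapped. The difference was 1.96 ± 0.47 (SE; 4 vehicle and 8 baclofen livers; limma adjusted p = 0.0127), a fold of 3.89. All 3 probe sets of Cyp2b10 were called at 5 days, with log2 differences of 1.96, 1.93 and 1.28. Leaving out vehicle replicate 2 gave 1.71 (adjusted p = 0.0555) and leaving out vehicle replicate 3 gave 1.67 (adjusted p = 0.0667).

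**Figure D3:**
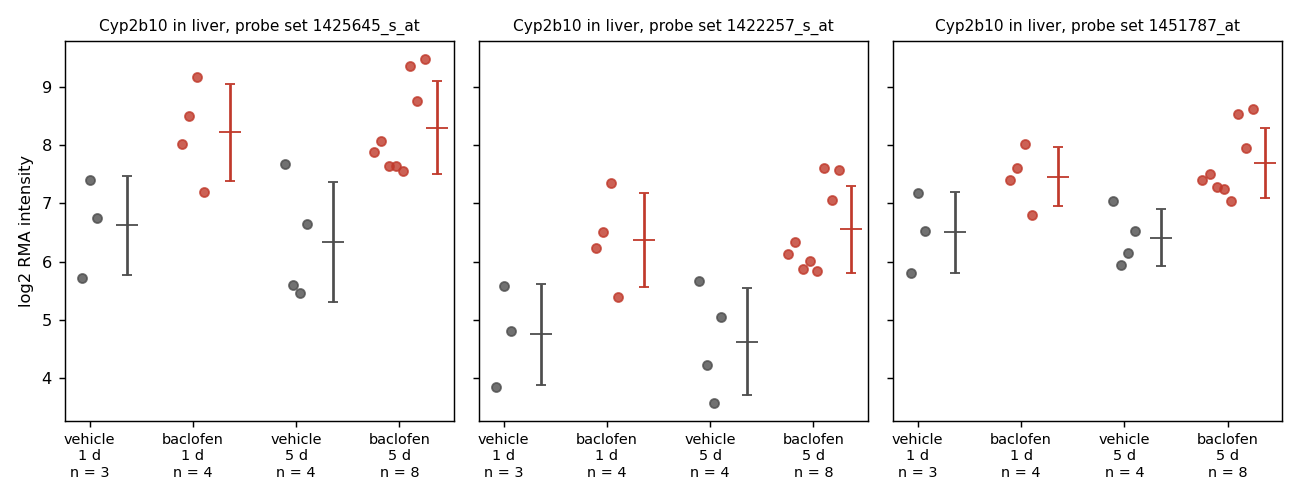
Log2 RMA intensity (y axis) of the 3 Cyp2b10 probe sets in each liver (points), with the group mean and SD beside them, by treatment and time. All 3 probe sets show higher baclofen means at both times, and the vehicle points at 5 days spread from 5.46 to 7.67 on the first probe set.

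Cyp2c29, Cyp3a11 and Cyp3a25 changed by small factors near the top of the array's range, with little spread among the baclofen livers. The third Cyp3a gene tested, Cyp3a13, had a liver mean of 9.95 and differed by 0.13 ± 0.19 (SE; limma adjusted p = 0.708). Cyp2c29 hydroxylates drugs and steroids and is a known CAR target. Vehicle livers had 13.91, 13.65, 13.60 and 13.75, and baclofen livers 14.00, 14.02, 13.99, 13.97, 13.92, 13.96, 13.99 and 13.94. The groups did not overlap, which was so for 2 of the 30 genes in the upward direction and for 2.59% of all genes. The difference was 0.25 ± 0.05 (SE; limma adjusted p = 0.0070), and it stayed called when any 1 of the 12 livers was left out (0.21 to 0.31, highest adjusted p = 0.0392).

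Cyp3a11 is the main PXR-induced enzyme of mouse liver. Vehicle livers had 14.42, 14.53, 14.30 and 14.59, and baclofen livers 14.67, 14.68, 14.68, 14.66, 14.63, 14.66, 14.69 and 14.60. The groups did not overlap, by a narrow margin. The difference was 0.20 ± 0.05 (SE; limma adjusted p = 0.0164), and 0.15 (adjusted p = 0.0894) without vehicle replicate 3.

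Cyp3a25, another member of the Cyp3a cluster, had 13.73, 13.11, 13.05 and 13.78 in vehicle livers and 13.80, 13.80, 13.93, 13.84, 13.80, 13.69, 13.75 and 13.90 in baclofen livers. The 2 lowest vehicle livers, replicates 2 and 3, carried the difference, while the other vehicle livers lay among the baclofen values. The difference was 0.40 ± 0.11 (SE; limma adjusted p = 0.0270). It was 0.29 (adjusted p = 0.122) without vehicle replicate 2 and 0.27 (adjusted p = 0.141) without vehicle replicate 3. Cyp3a25 also lost its call when only the groups compared were fitted (adjusted p = 0.0666) and with array weights (0.33, adjusted p = 0.0815).

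The upstream windows of these 3 genes are shown because the genes were called higher at 5 days (RefSeq, GRCm38.p6: Cyp2c29 chr19:39286835-39287084, plus strand, Cyp3a11 chr5:145879855-145880104, minus strand, and Cyp3a25 chr5:146009619-146009868, minus strand, the first of 2 listed starts).
Cyp2c29: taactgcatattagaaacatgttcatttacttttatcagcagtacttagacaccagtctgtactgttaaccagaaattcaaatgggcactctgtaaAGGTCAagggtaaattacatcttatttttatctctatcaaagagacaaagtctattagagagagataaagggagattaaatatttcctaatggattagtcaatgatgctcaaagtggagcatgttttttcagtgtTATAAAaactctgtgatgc
Cyp3a11: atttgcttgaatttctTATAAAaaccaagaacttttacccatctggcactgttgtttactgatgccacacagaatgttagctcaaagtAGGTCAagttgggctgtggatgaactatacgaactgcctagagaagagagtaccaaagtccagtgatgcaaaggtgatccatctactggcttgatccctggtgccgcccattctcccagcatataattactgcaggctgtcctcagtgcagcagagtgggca
Cyp3a25: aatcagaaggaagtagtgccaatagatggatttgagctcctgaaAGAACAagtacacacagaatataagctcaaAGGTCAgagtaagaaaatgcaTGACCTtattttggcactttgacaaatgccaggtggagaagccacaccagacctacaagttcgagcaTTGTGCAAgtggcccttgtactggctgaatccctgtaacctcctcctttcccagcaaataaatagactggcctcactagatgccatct
Each held AGGTCA, at 154 to 149 bases before the start in Cyp2c29, at 162 to 157 in Cyp3a11 and at 176 to 171 in Cyp3a25, which had another on the opposite strand at 155 to 150. The Cyp2b10 window held none. The windows were picked from called genes, and whether a receptor acts there was not tested. TATAAA lay at 19 to 14 in Cyp2c29 and at 234 to 229 in Cyp3a11. In Cyp3a25, TGTTCT lay at 206 to 201 and TTGCNNAA at 88 to 81, both on the opposite strand.

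A promoter entry was found for 35 of the 43 genes, and 1 start per gene was counted. The nuclear receptor half-site was present in 11 of the 35 windows (31.4%) and in 13.8% of the windows of 27025 genes. The TATA box was present in 17 windows (48.6%) against 13.0%. The C/EBP site was present in 7 of the 35 against 9.55% of all, and the glucocorticoid receptor half-site also in 7 against 16.2%. The AhR core was present in 6 (17.1%) against 28.2%, and the E-box in 1 (2.86%) against 6.05%. Cyp2d22 has no entry.

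Cyp2d40, a Cyp2d gene of low signal, fell. Vehicle livers had 5.79, 6.66, 6.37 and 6.80, and baclofen livers 5.86, 6.00, 5.73, 5.93, 5.90, 5.71, 6.06 and 5.43. Vehicle replicate 1 lay within the baclofen range and the other vehicle livers above it. The difference was -0.58 ± 0.15 (SE; limma adjusted p = 0.0203). Cyp2d40 was no longer called when 1 of vehicle livers 2, 3 or 4 was left out, where the difference was -0.49 (adjusted p = 0.0849), -0.59 (adjusted p = 0.0553) and -0.45 (adjusted p = 0.0647) in turn.

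**Figure D4:**
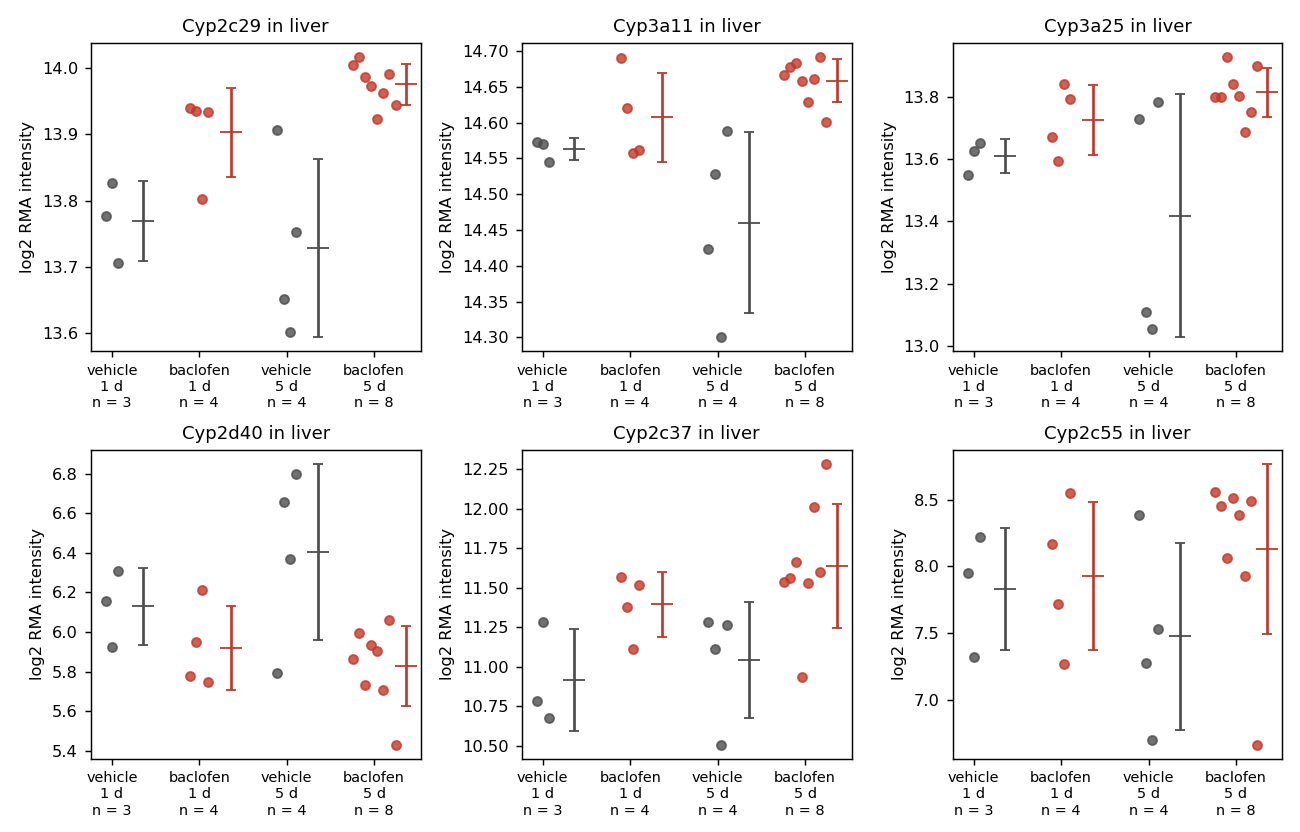
Log2 RMA intensity (y axis, scaled to each gene) of Cyp2c29, Cyp3a11, Cyp3a25, Cyp2d40, Cyp2c37 and Cyp2c55 in each liver (points), with the group mean and SD beside them, by treatment and time. For Cyp2c29 and Cyp3a11 every baclofen liver at 5 days lies above every vehicle liver, for Cyp3a25 vehicle livers split into a pair near 13.1 and a pair near 13.8, and for Cyp2c55 1 baclofen liver lies at 6.66.

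At 5 days the acute phase mean was 10.45 to 12.92 in vehicle livers and 10.46 to 12.14 in baclofen livers, so the groups overlapped. Of the 17 acute phase genes, 8 were called lower with baclofen and 0 higher, against 5.75% and 4.86% of all genes. At 1 day 1 was called lower and 2 higher, against 1.09% and 1.58%. Vehicle replicate 1 (acute phase mean 12.44) and baclofen replicate 8 (12.14) each had the highest Cyp2b10 of their group. Vehicle replicate 2, with the highest acute phase mean (12.92), and vehicle replicate 3 had the lowest Cyp2b10 and Cyp3a25 values among the vehicle livers. Vehicle replicate 4, with the lowest acute phase mean (10.45), had the highest Cyp3a11 and Cyp3a25 values among the vehicle livers. With that mean as a covariate, an alternative added after the data were seen, none of the 4 rises kept its call. The difference was then 2.07 for Cyp2b10 (adjusted p = 0.0570), 0.23 for Cyp2c29 (adjusted p = 0.0581), 0.17 for Cyp3a11 (adjusted p = 0.130) and 0.29 for Cyp3a25 (adjusted p = 0.220), while Cyp2d40 (-0.71) and Cyp2u1 (-0.52) were called lower. For Cyp2b10, Cyp2c29, Cyp3a11 and Cyp3a25 in turn, the differences without the covariate were 1.96, 0.25, 0.20 and 0.40. Their SE was 0.58, 0.07, 0.06 and 0.13 with the covariate, and 0.47, 0.05, 0.05 and 0.11 without it. Of all 10916 genes tested, 369 were called with the covariate and 1159 without it. As 8 of the acute phase genes fell with baclofen, treatment and acute phase level cannot be told apart in this fit.

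The other 9 Cyp2c genes tested were not called at 5 days, and some of them had larger differences than Cyp2c29 with wider error. Of the 10 Cyp2c genes tested, 9 lay above 0, with a median of 0.37. Cyp2c37, which is CAR-responsive, had 11.29, 11.11, 10.51 and 11.26 in vehicle livers and 10.94 to 12.28 (median 11.58) in baclofen livers. Its difference was 0.60 ± 0.19 (SE; limma adjusted p = 0.0544). Cyp2c38, an enzyme of fatty acid oxidation, differed by 0.67 ± 0.31 (adjusted p = 0.169) and Cyp2c55 by 0.66 ± 0.34 (adjusted p = 0.223). Cyp2c55 had 7.93 to 8.56 in baclofen livers 1 to 7 and 6.66 in replicate 8, and without that liver its difference was 0.87 and it was called (adjusted p = 0.0445).

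In the downward direction Cyp2u1, which hydroxylates long-chain fatty acids, differed by -0.36 ± 0.13 (limma adjusted p = 0.0727). Its other probe set differed by -0.66 (adjusted p = 0.0086 among 20967 probe sets), so the call depends on the probe set. Without vehicle replicate 2 the first probe set differed by -0.46 and was called (adjusted p = 0.0415). Cyp2d13 differed by -0.16 ± 0.12 (adjusted p = 0.415).

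Several bright genes were not called at 5 days. Their means of 13.07 to 14.63 lie near the highest value on the liver arrays, 15.40, and whether the signal is compressed there was not tested. Cyp2e1 differed by 0.07 ± 0.04 (adjusted p = 0.274). Cyp1a2, the AhR-induced enzyme of caffeine oxidation, differed by -0.01 ± 0.11 (adjusted p = 0.969). Cyp2f2, an enzyme known from naphthalene oxidation, differed by -0.06 ± 0.06 (adjusted p = 0.534). Cyp2c70, which forms the mouse-specific muricholic acids, differed by -0.09 ± 0.08 (adjusted p = 0.524). Cyp2d9, a male-predominant steroid hydroxylase, differed by 0.06 ± 0.06 (adjusted p = 0.563), and Cyp2d26 by 0.07 ± 0.07 (adjusted p = 0.586).

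After a single dose, 0 of the 30 genes were called in liver by limma, against 2.67% of all genes, and 3 had an unadjusted p under 0.05, all higher, against 6.27% of all genes in that direction. The difference was above 0 for 20 of the 30, against 47.1% of all genes. The groups did not overlap for 4 genes in the upward direction, against 6.2% of all genes. Cyp2b10 was 5.72, 7.41 and 6.74 in vehicle livers and 8.03, 8.49, 9.17 and 7.19 in baclofen livers. The difference was 1.60 ± 0.59 (SE; 3 vehicle and 4 baclofen livers; adjusted p = 0.204), and it was -0.25 when the source field set the groups. Cyp2j9, of an arachidonic acid epoxygenase family, was 6.84, 6.51 and 6.63 in vehicle livers and 7.18, 7.06, 7.27 and 7.84 in baclofen livers. Those groups did not overlap, and the difference was 0.67 ± 0.21 (adjusted p = 0.117). Cyp2c37 differed by 0.48 ± 0.24 (adjusted p = 0.437). The largest downward differences were -0.31 for Cyp2d13 (adjusted p = 0.425), -0.21 for Cyp2d40 (adjusted p = 0.775) and -0.14 for Cyp2c38 (adjusted p = 0.951).

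The sign of the difference was the same at 1 and 5 days for 25 of the 30 genes (83.3%), of which 19 were higher and 6 lower at both times, against 61.4% of all genes. The change of the difference from 1 to 5 days was called for 0 of the 30 genes, against 0.0183% of all genes, and 0 of the 30 had an unadjusted p under 0.05 in limma, against 9.62%. Its largest upward values were 0.81 ± 0.49 for Cyp2c38, 0.57 ± 0.52 for Cyp2c39 and 0.56 ± 0.54 for Cyp2c55. The largest downward values were -0.37 ± 0.24 for Cyp2d40, -0.32 ± 0.20 for Cyp2u1 and -0.24 ± 0.27 for Cyp2j9.

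Between vehicle livers of 5 days and of 1 day, 0 of 30 P450 genes were called, as were 0% of all genes, and 0 of the 30 had an unadjusted p under 0.05 in limma, against 7.14%. The largest differences were 0.27 ± 0.19 for Cyp2d40, 0.16 ± 0.41 for Cyp2c39 and 0.14 ± 0.15 for Cyp2d13 upward, and -0.36 ± 0.42 for Cyp2c55, -0.28 ± 0.59 for Cyp2b10 and -0.21 ± 0.16 for Cyp2u1 downward.

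The receptors that regulate these enzymes were examined as a list of 13 receptors and liver factors, of which 12 were tested. At 1 day 2 were called higher and 0 lower, against 1.58% and 1.09% of all genes, and at 5 days 5 higher and 1 lower, against 4.86% and 5.75%. The list did not move one way: differences were positive for 5 and negative for 7 at 1 day (median -0.04), and positive for 6 and negative for 6 at 5 days (median 0.00). Nr1i2, which encodes PXR, rose by 0.55 ± 0.14 at 1 day (limma adjusted p = 0.0414) and by 0.75 ± 0.11 at 5 days (adjusted p = 0.00048), without overlap at either time. Nr1i3, which encodes CAR, rose by 0.56 ± 0.16 at 5 days (adjusted p = 0.0343), as did Ahr by 0.58 ± 0.18 (adjusted p = 0.0465). Ppargc1a, a coactivator of fasting metabolism, rose by 1.57 at 1 day and 1.71 at 5 days. Nr3c1, the glucocorticoid receptor, rose by 0.32 ± 0.09 at 5 days (adjusted p = 0.0297). Cebpa, a transcription factor of hepatocytes, was the 1 that fell at 5 days, by 0.36 (adjusted p = 0.0112).

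Of 12 tested CAR and PXR targets outside the P450s, 1 was called higher at 1 day (1.58% of all genes) and 5 at 5 days (4.86% of all genes), with 0 lower at either time. Those at 5 days were the transporters Slco1a4 (1.26 ± 0.25) and Abcc2 (0.40 ± 0.10), the sulfotransferase Sult1d1 (1.02 ± 0.21), the monooxygenase Fmo5 (0.63 ± 0.14) and the stress gene Gadd45b (0.58 ± 0.18). Of 12 tested genes for P450 electron partners and haem synthesis, 0 were called at 1 day and 1, Uros, was lower at 5 days (-0.31 ± 0.09). Alas1, the rate-limiting enzyme of haem synthesis, differed by 0.83 ± 0.30 at 5 days (adjusted p = 0.0862). Neither of the 2 tested AhR targets outside the P450s was called. Among 11 pericentral genes outside the P450s, 2 were lower at 5 days, Axin2 (-0.65) and Tbx3 (-1.75), and among 6 periportal genes 4 were higher, against 5.75% of all genes called lower and 4.86% called higher.

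In bone marrow 0 of 3 tested P450 genes were called at 1 day, against 7.36% of all genes, and 0 of 3 at 5 days, against 10.1%. By limma's unadjusted p under 0.05 the counts were 1 (24.1% of all genes) and 0 (26.4%). Cyp1b1 was 7.34, 9.16, 8.10 and 8.48 in vehicle samples and 9.21, 9.31, 8.61 and 8.63 in baclofen samples at 1 day, a difference of 0.67 ± 0.29 (adjusted p = 0.163). Without vehicle replicate 2, the highest vehicle sample, the difference was 0.97 and Cyp1b1 was called (adjusted p = 0.0380). Baclofen replicate 3 held skeletal muscle transcripts (mean 9.75, against 6.66 to 8.03 in the other marrows), and without it the difference was 0.78 (adjusted p = 0.106). At 5 days Cyp1b1 differed by 0.17 ± 0.25 (adjusted p = 0.727). Its other tested probe set differed by 0.32 at 1 day (limma adjusted p = 0.455 over 20967 probe sets) and by 0.24 at 5 days (adjusted p = 0.508). Cyp2c29 and Cyp2b10 differed by at most 0.15 in size at either time. In marrow and spleen Cyp2b10 was read on the probe set that differed by 1.28 in liver at 5 days.

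In spleen 1 of 5 tested P450 genes was called at each time, Cyp2d22, which rose; 7.64% of all genes were called higher at 1 day and 3.05% at 5 days (15.5% and 4.43% in either direction). At 1 day Cyp2d22 was 5.97, 6.09, 6.58 and 6.47 in vehicle spleens and 7.07, 6.89, 6.96 and 6.95 in baclofen spleens. The groups did not overlap, which was so for 8.27% of all genes in that direction, and the difference was 0.69 ± 0.14 (SE; limma adjusted p = 0.0041). At 5 days it was 5.99, 6.22, 6.70 and 6.14 in vehicle spleens and 6.59 to 7.06 (median 6.86) in baclofen spleens. The difference was 0.61 ± 0.12 (adjusted p = 0.00987), with vehicle replicate 3 within the baclofen range. The spleen filter kept genes with a mean of at least 6.31 over the 20 spleens, where Cyp2d22 averaged 6.65. Most vehicle values lay below 6.31 and every baclofen value above it, so the gene passed the filter through its baclofen spleens. Without the filter Cyp2d22 was also called at both times. The other probe set of Cyp2d22 differed by 0.39 at 1 day (adjusted p = 0.0450 over 20967 probe sets) and by 0.38 at 5 days (adjusted p = 0.0521), where it was not called. A call was kept when any 1 spleen was left out, with highest adjusted p of 0.0178 at 1 day and 0.0476 at 5 days. Without the 3 spleens of 5 days with the highest hepatocyte means the difference was 0.67 (adjusted p = 0.0339). In liver, where the other probe set stood for the gene, Cyp2d22 differed by 0.32 ± 0.14 at 5 days (adjusted p = 0.160). The probe set used in spleen differed by 0.27 in liver at 5 days (adjusted p = 0.225 over 20967 probe sets). The difference between tissues was not tested. The mature neutrophil mean in spleen was 10.56 to 12.54 in vehicle and 10.42 to 10.86 in baclofen samples at 1 day, and its part in the result was not tested.

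Cyp1b1 in spleen differed by 0.28 ± 0.19 at 1 day (limma adjusted p = 0.326) and 0.45 ± 0.17 at 5 days (adjusted p = 0.111). Its other tested probe set differed by 0.03 at 1 day (adjusted p = 0.928 over 20967 probe sets) and by 0.28 at 5 days (adjusted p = 0.312). Cyp2s1, an enzyme of epithelia and immune cells, differed by -0.16 ± 0.22 and 0.40 ± 0.19 (adjusted p = 0.620 and 0.179), and Cyp2b10 by 0.06 ± 0.13 and 0.02 ± 0.11.

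Cyp2e1 varied most among the spleens, from 4.61 to 10.86, and differed by -0.35 ± 1.09 at 1 day and 0.49 ± 0.94 at 5 days (adjusted p = 0.847 and 0.761). It was 6.58 to 10.86 in the 4 spleens whose hepatocyte mean was over 6, where Cyp3a11 was 6.27 to 9.42. It was 7.97 to 9.65 in 5 baclofen spleens at 5 days whose mean over adipocyte genes was over 7 and whose Cyp3a11 was 3.82 to 5.79. In the other 11 spleens Cyp2e1 was 4.61 to 6.89. The adipocyte list was added after the data were seen, and adipocytes are known to express Cyp2e1. Without vehicle 5-day replicates 1 and 3 and baclofen 5-day replicate 5 the difference at 5 days was 1.64 (adjusted p = 0.343). The part of other tissue in these values was not tested.

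**Figure D5:**
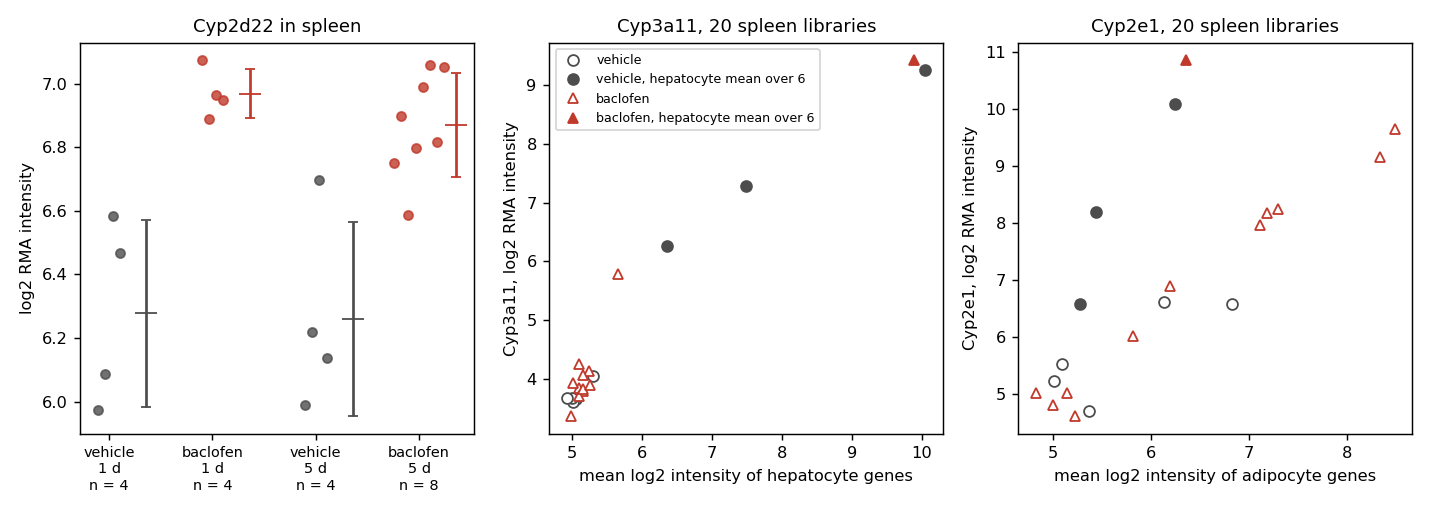
Left, log2 RMA intensity of Cyp2d22 in each spleen with group mean and SD; middle, Cyp3a11 against the mean log2 level of hepatocyte genes; right, Cyp2e1 against that of adipocyte genes, each point 1 of 20 spleens (filled where the hepatocyte mean is over 6). Every baclofen spleen at 1 day lies above every vehicle spleen for Cyp2d22, Cyp3a11 is over 6 in the filled points, and open points with high Cyp2e1 lie at adipocyte means over 7.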

How the data were processed

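The authors deposited linear signal intensity that they made with RMA, per the submitters' processing notes; a build is not given in the sources used here. Array medians were 34.7 to 36.8 in liver, 72.6 to 76.1 in bone marrow and 74.3 to 77.6 in spleen, so liver appears to have been normalized apart, while these medians do not separate marrow from spleen. Values were transformed to log2. Of 45101 probe sets, 64 controls, 932 with several symbols and 9160 with none were left out. The probe set with the highest mean in a tissue stood for its gene, and the 10916 genes at or above the 40th percentile of mean level were tested. R 4.3.3 and limma 3.58.1 (lmFit, eBayes) fitted the 4 groups of each tissue, with 2-sided p-values adjusted by Benjamini and Hochberg over all genes tested.

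The genes and lists were chosen with earlier results of these data known. Genes were named by rule: every called gene, the 8 brightest in liver, the 3 largest rises and falls in each liver comparison and all tested in marrow or spleen; Cyp1a2, Cyp1a1 and genes below the filter were added for their roles. Groups follow titles. The labels number replicates without saying that each is a separate animal, so p-values measure the spread between these samples, which may be technical; no batch is given. The number of arrays limits the precision. The fit was tested on simulated data. Alternatives covered normalization, filters, probe sets, weights, labels and left-out samples.

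Promoter sequences came from RefSeq (GRCm38.p6). All 6 motifs searched are reported; 1 start per gene was counted, a choice made after shares over all 32851 listed starts (nuclear receptor 14.0%, glucocorticoid receptor 16.1%, AhR 28.2%, TATA box 12.4%, C/EBP 9.56% and E-box 6.02%) had been seen.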

Additional observations from a re-analysis of the deposited data

Results flagged for a closer look

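In 5 of 63 groups of 4 to 10 samples, 1 sample lay far from the others for a P450 gene; chance alone gives about 1 in 20 such groups. In liver, baclofen 5-day replicate 8 was at 6.66 for Cyp2c55 (next 7.93), at 6.89 for Cyp2u1 (next 7.33) and at 8.01 for Cyp2j9 (next 7.20). That liver was the highest or lowest of its group for 20 of 30 P450 genes (66.7%), against 44.5% of all genes, and its acute phase mean was 12.14. In spleen, baclofen 1-day replicate 2 was at 6.89 for Cyp2e1 (next 5.02), and baclofen 5-day replicate 8 was at 10.80 for Cyp1b1 (next 10.22).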

How the results depend on the processing

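The count of called P450 genes at 5 days in liver, 5, was 1 at an adjusted p under 0.01 (Cyp2c29), 1 with at least a 1.5-fold change (Cyp2b10), 1 with the replicate block (Cyp2c29) and 2 with the acute phase mean as covariate, an alternative chosen after seeing the data. Of all 10916 genes tested, 382, 287, 385 and 369 were called under these settings in turn, against 1159 in the main fit. The P450 count was 4 with only the groups compared and 4 with array weights, each without Cyp3a25. Leaving out 1 liver gave 1 to 7, with 3 without vehicle replicate 2 (708 of all genes) and 1 without vehicle replicate 3 (584 of all genes). The count in liver at 1 day, 0, was 1 with array weights (Cyp2j9), where 518 of all genes were called. In bone marrow the count of 0 was 0 to 1 at 1 day when a sample was left out. The 1 came without vehicle replicate 2, where 658 of all genes were called. With array weights it was 1 at 5 days in marrow (Cyp2c29), where 4404 of all genes were called. In spleen the count of 1 was 0 at both times with the 60th percentile filter, under which Cyp2d22 was not tested. It was also 0 at 5 days with the replicate block, where 61 of all genes were called. Replicate numbers did not consistently pair the samples: 5 of 23 same-numbered pairs had correlated deviations over 0.1 (-0.46 to 0.27). In liver the median correlation was 0.23 for same-numbered and -0.11 for other pairs at 1 day, and -0.19 and 0.01 at 5 days. Apart from the construction of the stricter settings, the cause of these changes in the counts was not tested.

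Only values that were not called reversed. With the source field as label at 1 day in liver, Cyp2b10 was -0.25, Cyp2j9 -0.47, Cyp2c37 -0.023 and Cyp2c38 0.59, and the change of Cyp2j9 was 0.91. With array weights in spleen, Cyp2s1 was 0.10 at 1 day and Cyp2b10 -0.025 at 5 days. Without the 3 spleens of 5 days with the highest hepatocyte means, Cyp2b10 was -0.0053 at 5 days. A vehicle spleen with a hepatocyte mean of 6.36 and baclofen spleens with adipocyte means over 7 stayed in. With 1 sample left out, Cyp2c38 ranged from -0.44 to 0.14 in liver at 1 day, Cyp2c39 from -0.10 to 0.44 and Cyp2b10 from -0.73 to 0.11 between vehicle livers, Cyp2b10 from -0.042 to 0.044 and Cyp2c29 from -0.16 to 0.034 in marrow at 1 day, Cyp2b10 from -0.069 to 0.21 (1 day) and -0.015 to 0.077 (5 days) in spleen, and Cyp2e1 from -0.20 to 1.32 in spleen at 5 days.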
